A study of Mus musculus with 6 samples.

Results

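The cytosolic ribosomal protein genes were followed in bEND.3 cells after knockdown of the long non-coding RNA Gm39822. Members were the genes of the count table whose symbol starts with Rpl or Rps followed by a number and a short suffix, together with Rplp0, Rplp1, Rplp2 and Rpsa, while Rps6k kinases and pseudogenes named with -ps were left out. This gave 89 of the 49315 genes in the table, 53 with symbols starting Rpl and 36 with symbols starting Rps. bEND.3 is an established line of mouse brain endothelial cells, and no further genotype is given in the labels. Cells were transfected with a GapmeR against Gm39822 or with a negative control GapmeR, both at 100 nM with Lipofectamine 2000. A GapmeR is an antisense oligonucleotide with a DNA core between locked nucleic acid ends, and it directs RNase H to the RNA that it pairs with. A single oligonucleotide product was used per arm in a single cell line, and no untransfected samples were analysed here. Counts from 4 GapmeR and 2 Negative Control samples were compared.

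Each ribosome joins a small and a large subunit. The small subunit carries Rps proteins and decodes the message, and the large subunit carries Rpl proteins and forms the peptide bonds. The proteins are needed in equal numbers, with the exception of the acidic stalk proteins, and in growing cells their messages are among the most abundant. Many of these messages begin with a run of pyrimidines, the 5′ terminal oligopyrimidine (TOP) motif, through which mTORC1 and Larp1 control their translation. When assembly fails, free Rpl5 and Rpl11 bind Mdm2 and restrain it from marking p53 for destruction.

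RefSeq promoter sequences of GRCm38.p6 were found for 64 of the 89 genes. A run of at least 8 C or T letters on the sense strand, within 10 bases of an annotated start, was present in 30 of the 64 (46.9%), against 15.8% of the 27025 genes with such a sequence. The windows below run from 10 bases before the annotated start through the first 20 transcribed bases, and are printed 5′ to 3′ on the gene's strand with the pyrimidine run in capitals. They are shown for genes that the comparison turned on, the first 4 with a run at the start and the others without.
Rps6 (chr4:86857348-86857377, minus strand): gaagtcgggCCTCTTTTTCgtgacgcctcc
Rplp2 (chr7:141447641-141447670, plus strand): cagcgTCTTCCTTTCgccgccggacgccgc
Rps27 (chr3:90213629-90213658, minus strand): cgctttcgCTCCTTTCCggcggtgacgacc
Rps24 (chr14:24490668-24490697, plus strand): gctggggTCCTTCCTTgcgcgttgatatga
Rpl23 (chr11:97782420-97782449, minus strand): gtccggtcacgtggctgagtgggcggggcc
Rpl37 (chr15:5116603-5116632, plus strand): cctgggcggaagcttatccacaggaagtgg
Rplp0 (chr5:115559457-115559486, plus strand): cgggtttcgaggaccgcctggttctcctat
Rpl7l1 (chr17:46782637-46782666, minus strand): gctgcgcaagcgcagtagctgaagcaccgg
RefSeq gives Rps24 another start, which has no such run. All 8 were among the genes called lower below. The median log2 fold change was -0.13 over the 30 genes with a run, of which 5 were called lower. It was -0.17 over the 32 tested genes without it, of which 10 were called lower. This split rests on the annotated start, as Rps24 shows, so a gene without a run here may still begin with one.

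The ribosomal protein genes together took 5.98, 6.46, 6.26 and 6.31% of all counts in GapmeR samples 1 to 4. Their shares were 6.41 and 6.00% in Negative Control samples 1 and 2. The groups overlapped, and the means were 6.25% ± 0.201 (SD, n = 4) and 6.21% ± 0.291 (SD, n = 2). Large subunit genes took 3.53% ± 0.108 (SD, n = 4) and 3.48% ± 0.166 (SD, n = 2), and small subunit genes 2.72% ± 0.109 (SD, n = 4) and 2.73% ± 0.125 (SD, n = 2). In bulk RNA, fewer cells and less RNA per cell cannot be told apart, and a share of counts does not give an amount per cell.

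**Figure D1:**
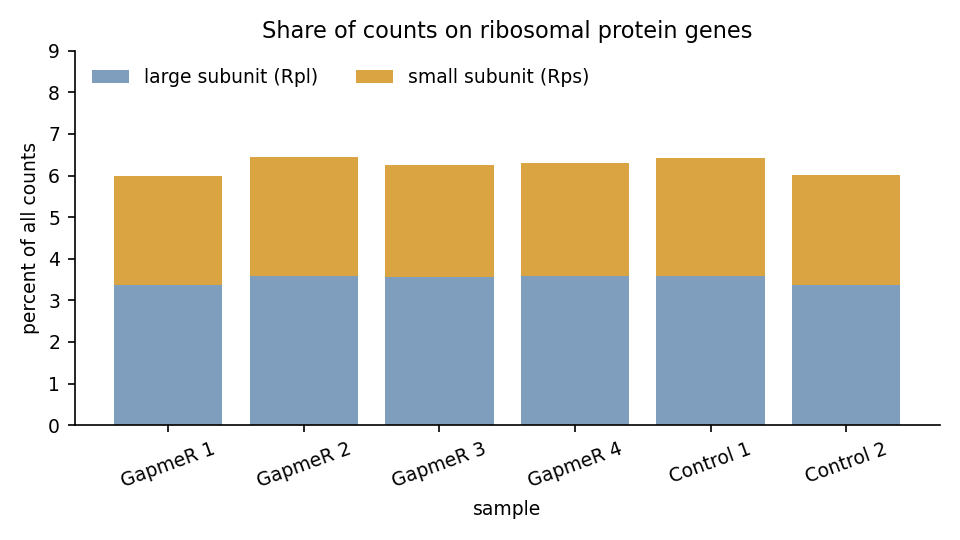
Percent of all counts in each sample that fell on ribosomal protein genes, stacked as large subunit (Rpl) and small subunit (Rps) genes. The whole bars lie between 5.98 and 6.46% in GapmeR samples and at 6.41 and 6.00% in the controls, so the groups overlap.

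Total counts were between 29261988 and 37117934 per sample, and 18234 genes passed a filter of 5 counts in 2 or more samples and were tested. The target Gm39822 had 2, 1, 4 and 2 counts after its GapmeR against 61 and 56 in the controls, a log2 fold change of -4.82 ± 0.41 (SE, edgeR). Gm39822 passed the filter only through the controls, where it is high, so no test is read from it. Nothing says that the samples came from separate cultures, so p-values measure the spread between these samples, which may be technical. All 13 endothelial markers examined had counts in every sample, and their summed level was 9033 to 10267 CPM after the GapmeR and 10538 to 11002 CPM in the controls. Markers of macrophages summed to 128 to 166 against 104 to 106 CPM, of astrocytes to 7.68 to 11.3 against 12.7 to 14.4 CPM, of pericytes to 1.34 to 4.32 against 1.13 to 1.57 CPM and of fibroblasts to 13.0 to 49.0 against 12.9 to 14.2 CPM. The only marker with no count in a sample was Des, a pericyte or smooth muscle gene, in GapmeR 4. The part of these markers in the results was not tested. CPM here are counts scaled to a common depth with TMM normalisation, which sets the samples level on the bulk of genes.

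More ribosomal protein genes were called lower than higher after the GapmeR with TMM scaling, while equal numbers were called with library size only. Of the 89 genes, 85 passed the filter, and 22 of these were lower and 4 higher at an adjusted p under 0.05 (edgeR's quasi-likelihood test, all genes adjusted together), while 59 were not called. Of the 4 higher, Rpl3l passed the filter through the GapmeR samples alone, where it is high, so it had to differ and only the other 3 are read as calls. Lower calls were 25.9% of the members tested, against 20% of all genes tested. Higher calls, with Rpl3l still counted, were 4.71% against 25.4%. Counts of members called higher in other fits also include Rpl3l where it was called. Among the 2242 genes with a mean of at least 100 CPM, 40.6% were called lower and 10.4% higher, whereas of the 80 ribosomal protein genes at that level 21 were lower and 3 higher. The median log2 fold change of the 85 was -0.15, against 0.03 over all genes tested and -0.15 over the genes at 100 CPM or more.

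With TMM scaling, 75 of the 85 log2 fold changes were negative and 10 positive, and with library size only 45 were negative and 40 positive, 4 genes were called lower and 4 higher, and the median was -0.01 (over all genes tested, 11.7% were then lower and 33.5% higher). Library size moved the median of all genes tested from 0.03 to 0.17. The ribosomal protein genes lay 0.18 below that median on the log2 scale under both scalings. A change of scaling shifts all genes by nearly the same amount, so this gap was bound to stay. With TMM scaling, the median at 100 CPM or more was -0.15 over all genes and -0.16 over the 80 ribosomal protein genes. TMM factors were 1.02 to 1.05 in GapmeR samples and 0.936 and 0.931 in the controls.

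Leaving out samples moved the counts. Without GapmeR 2, 36 ribosomal protein genes were lower and 3 higher, against 22.2% and 26.8% of all genes tested. Without Negative Control 1, 5 were lower and 3 higher (12.5% and 19.5% of all genes), and without Negative Control 2, 8 were lower and 1 higher (10.7% and 18.3%). The replicate block compared GapmeR 1 and 2 with Negative Control 1 and 2 only, and 8 were lower and 3 higher (17.9% and 24.8%). With a correction for transcript length 56 were lower and 2 higher (20.7% and 26.5%).

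The changes were small. Of the 80 ribosomal protein genes at 100 CPM or more, 55 (68.8%) had an absolute log2 fold change under 0.2, against 48.3% of all genes at that level. The interquartile range of their log2 fold changes was 0.113, against 0.350 for all genes at that level, and none of them was called at a 1.5-fold change or more. Leaving Rpl3l aside, 0 of the members were called at 1.5-fold in either direction, against 17.8% of all genes tested called higher and 7.62% called lower at that size. The median SD of log2 CPM over the 4 GapmeR samples was 0.09 in the ribosomal protein genes and 0.09 in all genes at 100 CPM or more. Across these 80 genes the log2 fold change had a Pearson correlation of -0.13 with transcript length, 0.20 with GC content and 0.07 with mean CPM (Spearman's rho -0.12, 0.19 and 0.09). These are descriptions across genes, which share libraries and are not independent replicates.

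**Figure D2:**
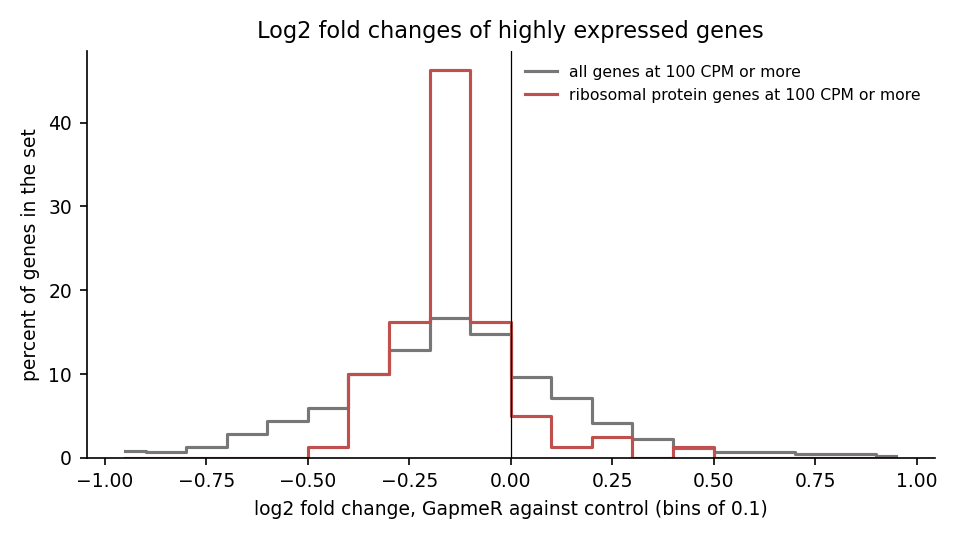
Share of genes (percent, vertical axis) in bins of log2 fold change 0.1 wide (horizontal axis), for the 80 ribosomal protein genes and all 2242 genes with a mean of at least 100 CPM. The bin from -0.2 to -0.1 holds 46.3% of the ribosomal protein genes and 16.7% of all genes at that level, and 62 of the latter lie beyond the axis. Bins follow TMM scaling, and with library size only the median of the 85 genes tested is -0.01.

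**Figure D3:**
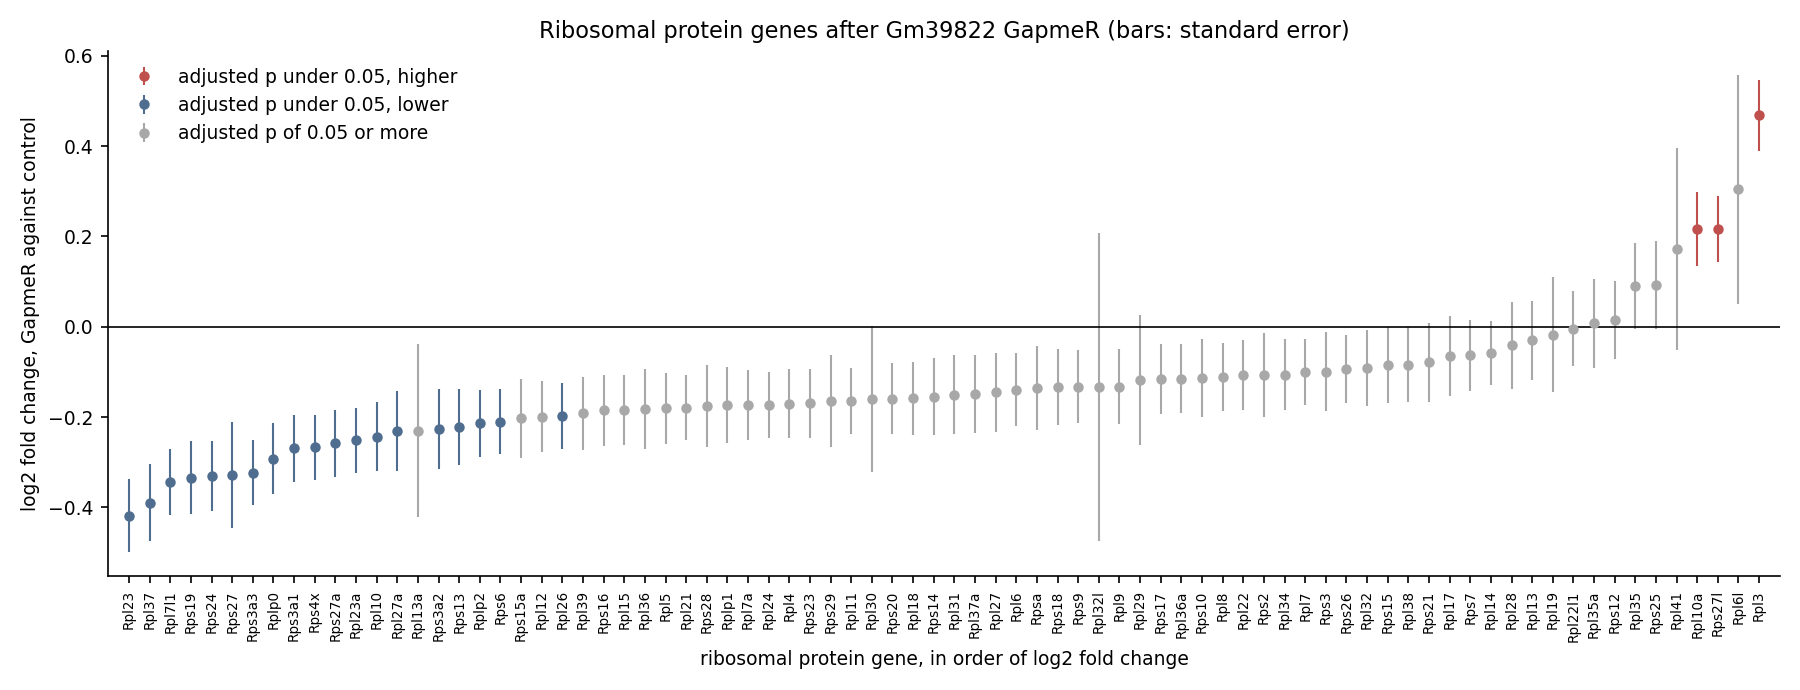
Log2 fold change (points) with its standard error (bars) for 80 of the 85 ribosomal protein genes tested, in order. Rpl3l, at 2.12 with few counts, is among those left out, and Rpl3 lies at 0.47 and Rpl23 at -0.42. With this TMM scaling 75 of the 85 values are negative, and with library size only 45 are.

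Genes of both subunits were called lower more often than higher with TMM scaling, whereas library size only gave 4 lower and 4 higher over both. Of the 51 large subunit genes tested, 10 were lower (19.6%) and 3 higher (5.88%, with Rpl3l counted), with a median log2 fold change of -0.15. Of the 34 small subunit genes 12 were lower (35.3%) and 1 higher (2.94%) with a median of -0.16. Over all genes tested 20% were lower and 25.4% higher, so the large subunit's share of lower calls was at the background. Among all genes at 100 CPM or more 40.6% were lower and 10.4% higher, and neither subunit's share of lower calls was above that. All GapmeR samples lay below both controls in 41 of the 85 genes, above both in 4 (Rpl3l among them), and the groups overlapped in 40. Over all genes tested, 27.3% lay wholly below and 31.9% wholly above. Of the 2242 genes at 100 CPM or more, 1156 lay wholly below and 320 wholly above. Of the 80 ribosomal protein genes at that level, 40 lay wholly below and 3 wholly above, so the share below was near that of genes at that level.

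Rpl3 had the highest log2 fold change of the well-counted members. It encodes a core protein that reaches toward the peptidyl transferase centre, and lies on chromosome 15 of mm10, by RefSeq, from 80077781 to 80083406 (ENSMUSG00000060036). Its level was 520, 502, 514 and 564 CPM in GapmeR samples 1 to 4 and 395 and 364 CPM in the controls. Every GapmeR sample was above both controls, and the log2 fold change was 0.47 ± 0.08 (SE, adjusted p = 0.000153, edgeR), a 1.38-fold rise. The call was made in all 18 alternative fits, with adjusted p between 1.82e-08 and 0.0104. Rpl3 also took a larger share of all ribosomal protein counts, 0.869% ± 0.0507 (SD, n = 4) against 0.571% ± 0.00860 (SD, n = 2), a measure that no scaling between samples can move.

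Rps27l and Rpl10a were the other well-counted genes that rose. Rps27l, a close relative of Rps27 that is known as a p53 target, lies on chromosome 9 (66944624 to 66949522, ENSMUSG00000036781) and stood at 178, 188, 175 and 169 CPM against 159 and 147 CPM in the controls. Its groups did not overlap, with a log2 fold change of 0.22 ± 0.07 (SE, edgeR adjusted p = 0.0254). Rpl10a, the protein of the mobile L1 stalk where deacylated transfer RNA leaves, lies on chromosome 17 (28328471 to 28331033, ENSMUSG00000037805) and stood at 473, 539, 488 and 527 CPM against 461 and 412 CPM. Its groups did not overlap either, although GapmeR 1 and Negative Control 1 were close, and its log2 fold change was 0.22 ± 0.08 (SE, edgeR adjusted p = 0.0420). Both calls were lost with the length curve and without Negative Control 2, where the edgeR adjusted p was 0.214 for Rps27l and 0.316 for Rpl10a. Rps27l was also not called without GapmeR 1 (adjusted p = 0.0506 from edgeR) and was lost with block and length curve together, so that it was called in 14 of the 18 alternatives. Rpl10a was not called without GapmeR 4 (0.0865 from edgeR), under the replicate block (0.0827), with the GC curve (0.255) or with the block and either curve (0.185 and 0.517), and was called in 11 of 18. Over the 18 alternatives the adjusted p ran from 0.000942 to 0.666 for Rps27l and from 0.00232 to 0.517 for Rpl10a.

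**Figure D4:**
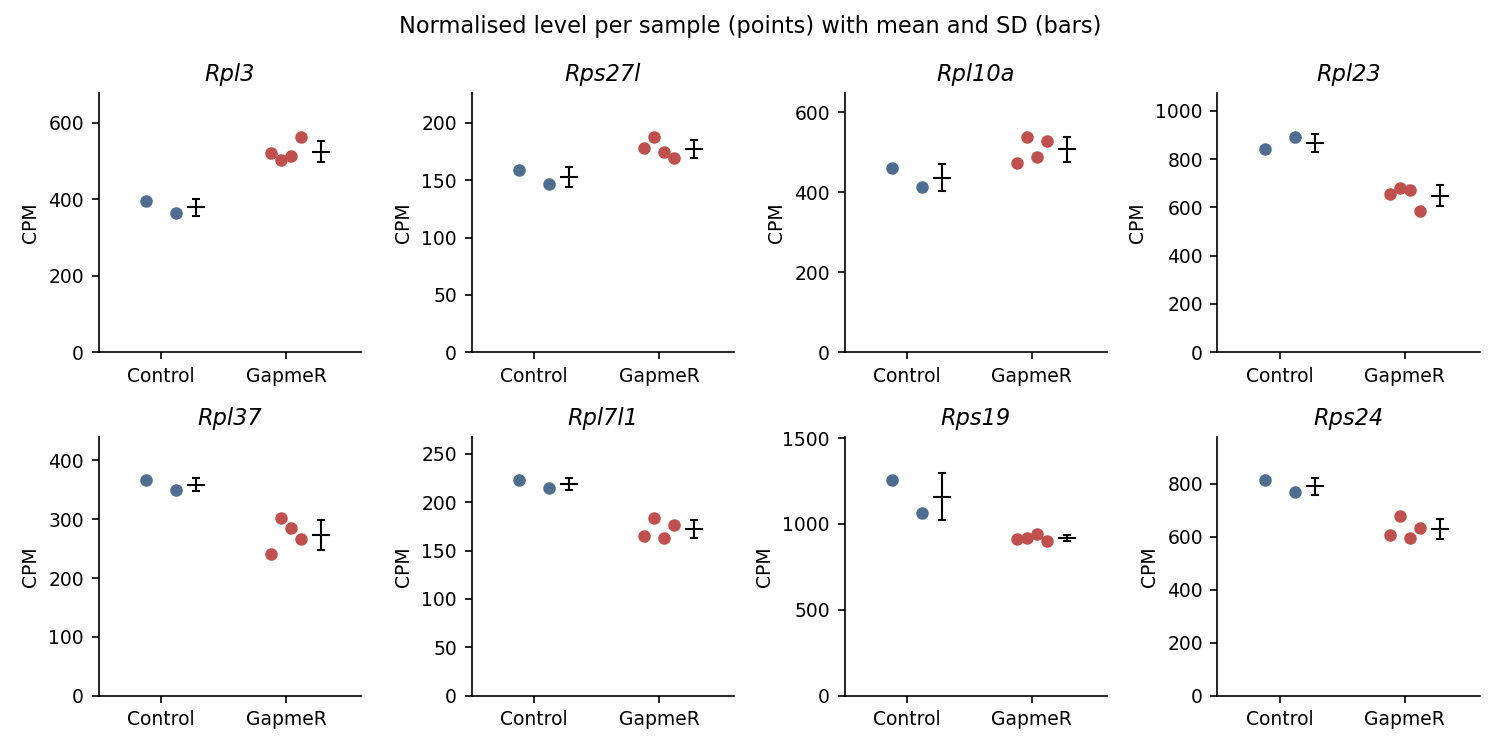
TMM-normalised level in CPM (axis from 0) of 8 ribosomal protein genes in each of 2 control and 4 GapmeR samples (points), with mean and SD beside them. All GapmeR points of Rpl3, Rps27l and Rpl10a lie above both controls, and all those of Rpl23, Rpl37, Rpl7l1, Rps19 and Rps24 lie below.

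Rpl23, Rpl37 and Rpl7l1 fell most steadily. Like Rpl3, they were among the 5 of 26 called members that kept their call in all 18 alternatives. Rpl23, a protein of the face that meets the small subunit and another that can bind Mdm2, lies on chromosome 11 (97777526 to 97782439, ENSMUSG00000071415) and stood at 655, 682, 671 and 586 CPM against 840 and 893 CPM. Every GapmeR sample was below both controls, and the log2 fold change was -0.42 (SE 0.08, adjusted p = 0.000486, edgeR), the lowest of the 85. Rpl37, a zinc-binding large subunit protein on chromosome 15 (5116613 to 5119140, ENSMUSG00000041841), stood at 242, 302, 285 and 266 CPM against 366 and 350 CPM. Its 4 GapmeR values were spread more widely than its controls and still lay below them, with a log2 fold change of -0.39 ± 0.09 (SE, edgeR adjusted p = 0.00146).

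Rpl7l1, which belongs to early precursors of the large subunit rather than to the finished ribosome, lies on chromosome 17 (46773907 to 46782656, ENSMUSG00000063888) and stood at 165, 183, 163 and 177 CPM against 223 and 214 CPM. Its log2 fold change was -0.34 ± 0.07 (SE, edgeR adjusted p = 0.00113), again with no overlap. Over the alternatives the adjusted p ran from 1.26e-06 to 0.0300 for Rpl23, from 5.24e-06 to 0.0426 for Rpl37 and from 5.04e-05 to 0.0433 for Rpl7l1.

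Rps19 and Rps24, both small subunit proteins whose human genes are mutated in Diamond-Blackfan anaemia, fell by similar amounts. Rps19, on chromosome 7 (24884592 to 24889811, ENSMUSG00000040952), stood at 912, 917, 942 and 903 CPM against 1255 and 1062 CPM, and Negative Control 1 was well above Negative Control 2. Its log2 fold change was -0.33 ± 0.08 (SE, edgeR adjusted p = 0.00312), with 0.000173 to 0.180 over the alternatives. Rps24 stood at 608, 680, 596 and 635 CPM against 814 and 769 CPM, with a log2 fold change of -0.33 and an adjusted p of 0.00261 from edgeR, with 0.000102 to 0.0737 over the alternatives.

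Other genes called lower had log2 fold changes from -0.33 to -0.20. In the small subunit they included Rps27, Rps3a1, Rps3a2, Rps3a3, Rps4x, Rps27a, Rps13 and Rps6, and in the large subunit Rplp0, Rplp2, Rpl23a, Rpl10, Rpl27a and Rpl26. Rps27a encodes a ribosomal protein fused to ubiquitin, Rpl23a sits at the exit of the nascent chain, and Rpl10 joins the large subunit last, in the cytoplasm. The groups overlapped in Rps27 and Rpl27a. Rps3a2 and Rps3a3 are near copies of Rps3a1, so reads may have been divided among the 3 genes in counting. The strand setting is not given in the sources used here, so overlapping genes may share reads as well. Relative to all ribosomal protein counts, 11 of the 22 lower genes lay wholly below the controls (among them Rpl23, Rpl23a, Rpl37, Rpl7l1, Rplp0, Rps19, Rps24, Rps27a, Rps3a1 and Rps4x) and 11 overlapped them. No other tested member lay wholly below on that measure. So 11 of the 85 did, a smaller share than the 16.4% of all genes tested. Wholly above lay 9 of the 85, against 39.9% of all genes tested. They were Rpl3, Rpl10a, Rps27l, Rpl3l, Rpl6l, Rpl35, Rps7, Rps12 and Rps25.

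The stalk of the large subunit, which recruits and activates the translation factors, is built of Rplp0 with dimers of Rplp1 and Rplp2. Rplp0 stood at 1654, 1620, 1581 and 1646 CPM against 2104 and 1876 CPM, and Rplp2 at 637, 687, 704 and 672 CPM against 789 and 777 CPM. All GapmeR samples were below both controls in both genes, and the log2 fold changes were -0.29 (adjusted p = 0.00637, edgeR) and -0.21 (adjusted p = 0.0269, edgeR). Rplp1 stood at 1906, 1846, 2147 and 1841 CPM against 2210 and 2155 CPM, a log2 fold change of -0.17 that was not called (adjusted p = 0.106, edgeR). GapmeR 3 nearly reached the controls in Rplp1. Over the alternatives the adjusted p was 0.000378 to 0.198 for Rplp0, 0.000484 to 0.481 for Rplp2 and 0.00404 to 0.812 for Rplp1, and the differences between the stalk genes were not tested.

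Rps6, the small subunit protein that S6 kinase phosphorylates downstream of mTORC1, stood at 758, 755, 742 and 744 CPM against 877 and 858 CPM. The samples within each group were close, and the log2 fold change was -0.21 ± 0.07 (SE, edgeR adjusted p = 0.0241, and 0.000370 to 0.483 over the alternatives). Rpl5, the Mdm2 binder that travels with the 5S RNA, stood at 821, 842, 809 and 888 CPM against 1001 and 903 CPM, and its partner Rpl11 at 360, 348, 390 and 366 CPM against 414 and 406 CPM. In both genes every GapmeR sample was below both controls, but neither was called, with log2 fold changes of -0.18 (adjusted p = 0.0704, edgeR) and -0.16 (adjusted p = 0.0805, edgeR). Over the alternatives the adjusted p ran from 0.0357 to 0.759 for Rpl5 and from 0.00433 to 0.873 for Rpl11.

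The most counted genes were Rps2, Rpsa and Rplp1. Rps2, at the entry of messenger RNA, stood at 3213, 3700, 3289 and 2896 CPM against 3462 and 3591 CPM, and Rpsa, also known as the laminin receptor, at 2165, 1783, 2096 and 2092 CPM against 2384 and 2084 CPM. The groups overlapped in both, and neither was called (log2 fold changes -0.11 and -0.14, edgeR adjusted p = 0.375 and 0.251). These levels are not set per length and do not rank the genes by molecules.

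Several ribosomal proteins have a paralogue, and the share of the paralogue was followed within each sample. Of the 4 pairs adjusted together, Rpl3l with Rpl3 is not read, because Rpl3l passed the filter only through the GapmeR samples. Rps27l had 88.0, 67.7, 79.9 and 82.0 counts per 100 counts of Rps27 in GapmeR samples 1 to 4, against 59.4 and 48.8 in the controls. The groups did not overlap, and the log2 ratio was higher by 0.55 (exact permutation test, two-sided, p = 0.0667, adjusted p = 0.0889 over 4 pairs), which is the smallest p that the 15 splits of 4 against 2 samples allow. Rps27 itself stood at 202, 278, 219 and 206 CPM against 268 and 300 CPM, so GapmeR 2 reached the controls. The log2 fold change of Rps27 was -0.33 (adjusted p = 0.0379, edgeR), and the call was lost in 5 of the 6 fits without a sample. Rpl7l1 had 32.2 ± 1.14 counts (SD, n = 4) per 100 counts of Rpl7 after the GapmeR and 38.1 ± 0.440 (SD, n = 2) in the controls (exact permutation p = 0.0667, adjusted p = 0.0889). Rpl7 was not called, at 540, 551, 503 and 547 CPM against 580 and 568 CPM.

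Rpl22l1, the paralogue of Rpl22, had 39.9 ± 3.02 counts (SD, n = 4) per 100 counts of Rpl22 against 37.3 ± 3.45 (SD, n = 2), and the groups overlapped (exact permutation p = 0.4, adjusted p = 0.4). Rpl22l1 stood at 60.8, 65.9, 56.5 and 53.5 CPM against 60.5 and 58.3 CPM, and Rpl22 at 139, 162, 146 and 146 CPM against 152 and 167 CPM. Neither was called (edgeR adjusted p = 0.974 and 0.275).

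**Figure D5:**
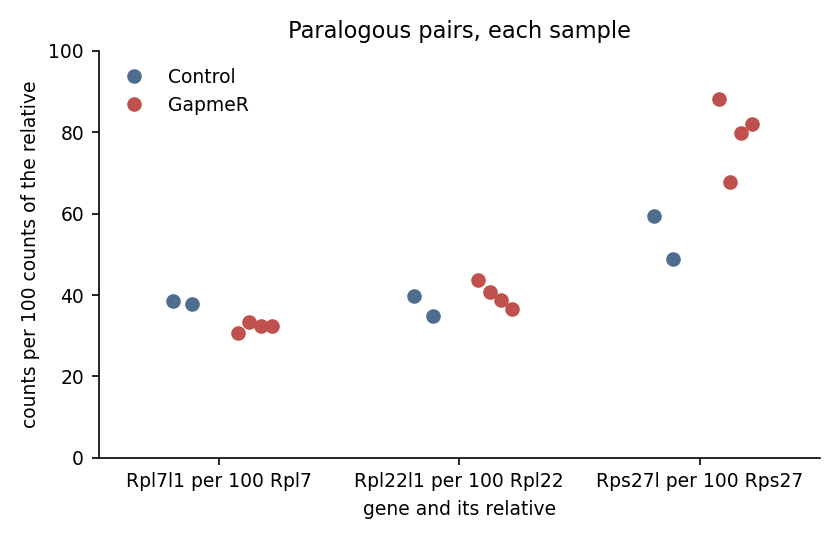
Counts of a ribosomal protein gene per 100 counts of its relative (vertical axis, from 0) in each control and GapmeR sample (points), for 3 pairs. The 4 GapmeR points lie above both controls for Rps27l and below both for Rpl7l1, and overlap them for Rpl22l1.

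Copies with restricted expression were at or near the limit of detection. Rpl3l, a paralogue of Rpl3 typical of heart and skeletal muscle, had 8, 12, 7 and 5 counts after the GapmeR and 2 and 1 in the controls. The ratio of summed, depth-scaled counts was 4.65 (95% exact interval 1.45 to 23.7, for counting error only). No test is read from Rpl3l or from this interval, because Rpl3l passed the filter only through the group where it is high. The interval also leaves out the spread between samples. Rpl39l, a testis-rich paralogue of Rpl39, had 1, 3, 8 and 3 counts against 0 and 0. It did not pass the filter, and its summed, depth-scaled counts were 2.18-fold above a floor of 3 counts over the control group. That figure leaves out counting error in the GapmeR samples, where 8 of the 15 counts came from GapmeR 3. Rpl39 stood at 224, 264, 247 and 227 CPM against 266 and 283 CPM, just below both controls, and was not called (adjusted p = 0.0612, edgeR).

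The remaining genes that failed the filter were Rps4l with 2, 0, 2 and 1 counts against 0 and 0, Rpl10l with 0, 1, 0 and 1 against 1 and 1, and Rps12l1 with none in any sample. Rps4l was under the floor in total, and no fold is given for it. Their parents were well expressed, with Rps4x at 740, 720, 698 and 714 CPM against 883 and 845 CPM and Rpl10 at 649, 606, 582 and 604 CPM against 754 and 691 CPM, and both were called lower (log2 fold changes -0.27 and -0.24, edgeR adjusted p = 0.00675 and 0.0164). Pseudogenes named after members had 125 of 279 entries tested, of which 8 were higher (6.4%) and 2 lower (1.6%). Both shares were under those of all genes tested, 25.4% higher and 20% lower. The median log2 fold change of the 125 was -0.04, with 61 positive and 64 negative values. All pseudogene entries together took 0.709 to 1.02 counts per 100 member counts. Rpl5-ps2 had 50, 67, 44 and 54 counts against 3 and 4 and passed the filter only through the GapmeR samples, so no test is read from it. Whether other higher pseudogenes passed in the same way was not examined. Rps13-ps1 was called lower with a log2 fold change of -0.23. Adding pseudogene counts to their parents left 23 members lower and 4 higher.

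GapmeR sample 2 was the highest GapmeR sample in 41 of the 85 genes (48.2%), against 27.5% of all genes at 100 CPM or more. Rpl13a, chosen for its values, stood at 796, 1168, 751 and 726 CPM against 1014 and 1004 CPM, so GapmeR 2 alone was above the controls while the other GapmeR samples were below. Without GapmeR 2 the edgeR adjusted p was 4.12e-05 for Rpl13a, whereas with all samples it was 0.371, and over all alternatives it reached 0.803. Rpl41, which encodes the shortest of the ribosomal proteins, stood at 1636, 1625, 2276 and 2542 CPM against 2025 and 1560 CPM, with 2 of the 4 GapmeR samples above both controls and the other 2 between them.

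None of the 4 ribosomal proteins listed under other symbols was called by edgeR, 2 of them had an unadjusted p under 0.05, and DESeq2 called 1. Rpl36al, Fau and Rack1 had log2 fold changes of -0.23, -0.17 and -0.15, overlapped the controls and were not called. Rack1 is a scaffold on the small subunit head, and Fau yields a small subunit protein from a ubiquitin-like fusion. The median of the 4 was -0.20.

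The promoters held other letters in common. The word CCGGAAG, the core that ETS factors such as Gabpa recognise, was found on either strand in 26 of the 64 genes with a RefSeq promoter of 250 bases before to 50 after the start (40.6%, against 9.93% of all genes). AAGATGGC, which Yy1 recognises, was in 6 (9.38% against 3.19%) and TATAAA in 8 (12.5% against 15.7%). Genes with CCGGAAG had a median log2 fold change of -0.13 and those without it -0.17, and genes with AAGATGGC had -0.22 and those without it -0.14. A match is a description of letters, and binding was not measured. Of the 10 transcription factors listed for these promoters, 6 were lower (60%, against 20% of all genes tested) and 1 higher (10%, against 25.4%), with a median of -0.23. Myc stood at 101, 102, 105 and 124 CPM against 152 and 140 CPM (log2 fold change -0.43, adjusted p = 0.000605, edgeR), Max and Tbp had log2 fold changes of -0.36 and -0.37, and Gabpb1 rose by 0.40.

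The following lists of genes that work with ribosomal proteins are read against the 25.4% of all genes tested that were higher and the 20% that were lower. Of 20 translation factors and other TOP messages, 7 were lower (35%) and 1 higher (5%), with a median log2 fold change of -0.17. Among all genes at 100 CPM or more, 40.6% were lower and 10.4% higher, with a median of -0.15, so 35% was not above that share. Hnrnpa1 (-0.69), Tpt1 (-0.54) and Pabpc1 (-0.43), which encodes the poly(A)-binding protein, fell, and Eif3h rose by 0.88. Of the 78 mitochondrial ribosomal protein genes, which serve the ribosome inside mitochondria, 19 were lower (24.4%, near the background) and 8 higher (10.3%), with a median of -0.09. Mrps27 rose by 0.57, and Mrpl17, Mrpl55 and Mrpl16 fell by 0.52, 0.49 and 0.48 on the log2 scale. Directions near 0 in these lists hold for TMM scaling, since library size only moved the median of all genes to 0.17.

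Of 59 ribosome assembly factors tested, 10 were higher and 10 lower (16.9% each, not above the background), with a median of 0.02. Mdn1 and Efl1, enzymes of large subunit maturation, rose by 1.00 and 0.94 on the log2 scale. Mdn1 stood at 89.3, 96.0, 87.6 and 94.8 CPM against 49.1 and 42.8 CPM. Eif6, which keeps the large subunit from joining too early and is released with the help of Efl1, stood at 584, 617, 581 and 469 CPM against 805 and 902 CPM and fell by 0.60, and Nop53 fell by 0.64. Of 12 RNA polymerase I genes tested, 3 were higher (25%, at the background) and 1 lower (8.33%), with Taf1a, Taf1c and Taf1d at 1.19, 0.47 and 0.40 and Tcof1 at -0.20.

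Of 19 genes of mTORC1 and TOP translation control, 6 were higher (31.6%) and 3 lower (15.8%), both near the background, with a median of 0.10. Tbc1d7 and Tsc1, parts of the complex that inhibits mTORC1, rose by 0.61 and 0.34, Mtor rose by 0.33, and Eif4ebp2 fell by 0.32 on the log2 scale. Of 18 genes of the p53 and Mdm2 axis, 4 were higher (22.2%) and 2 lower (11.1%), neither above the background, with a median of 0.10. The genes named are the 4 with the largest changes among called genes with a mean of at least 1 CPM. They are the 4 called higher, and the 2 called lower are not named. The largest log2 fold change in the list, 1.03, belonged to a gene that was not called. Mdm2, to which free Rpl5, Rpl11 and Rpl23 bind, stood at 566, 632, 550 and 652 CPM against 377 and 395 CPM, a log2 fold change of 0.64 (adjusted p = 1.84e-05, edgeR). Mdm4, Sesn1 and Zmat3 rose by 0.62, 0.60 and 0.45 on the log2 scale.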

How the data were processed

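RNA from bEND.3 cells was measured by RNA sequencing in 4 GapmeR and 2 Negative Control samples, grouped by their labels. The authors depleted ribosomal RNA, aligned paired reads to mm10 and deposited whole-number read counts per Ensembl gene. Per the submitters' processing notes, Trimmomatic 0.36, STAR 2.5.2b and Subread 1.5.2 were used. 1 further column of per-sample counts was not used. Genes with at least 5 counts in 2 samples were fitted together in edgeR 4.0.16 (R 4.3.3; TMM, robust quasi-likelihood, Benjamini-Hochberg), with DESeq2 1.42.0 among 18 alternatives. Total counts per sample reached 37117934. Intervals cover counting error only, and floors of 3 counts cover counting error in the controls only. In simulated data for this comparison (18234 genes, 200 changed), 170 changed genes were recovered and 7 of 177 calls were false. Recovery of changes as small as those of the ribosomal protein genes was not tested. The share of false calls was not tested with as many changed genes as were called here. Copy ratios were compared by exact permutation over 15 splits.

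Members and gene lists were chosen with earlier results of these data known. Genes named were the 5 highest and 5 lowest called members, the 3 with the highest mean CPM, low-count copies with their parents, the stalk genes, Rpsa, Rps6, Rpl5, Rpl11, members failing the filter, and up to 4 called genes per list, by size of change. Other called members were named for completeness, and some genes that these rules name are not reported here. Levels were not compared between genes, because annotated transcript lengths were too long for several members. Promoter and start sequences came from RefSeq, GRCm38.p6.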

Additional observations from a re-analysis of the deposited data

Results flagged for a closer look

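Among the 4 GapmeR samples, 1 sample stood apart from the other 3 by Dixon's criterion in 11 of the 85 ribosomal protein genes tested (12.9%), against 5.79% of all genes tested. Chance sets about 1 in 20 such groups apart.

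GapmeR 2 was alone on the high side in 6 of them, among them Rpl13a at 1168 CPM, Rps7 at 801 CPM, Rpl27a at 729 CPM, Rpl35a at 727 CPM and Rps15a at 369.5 CPM. It was alone on the low side in Rpl4 at 1293 CPM. GapmeR 1 was low in Rpl29 at 143 CPM and Rps15 at 1156 CPM, and GapmeR 3 was high in the low-count copy Rpl6l at 2.32 CPM.

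GapmeR 1 was low in the share of counts on large subunit genes, at 3.37%. Outside the members, GapmeR 2 was high in Taf1d at 53.2 CPM, in Tbp at 25.8 CPM and in the share of counts on mitochondrial ribosomal protein genes at 0.438%, and GapmeR 4 was high in Rack1 at 1272 CPM.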

How the results depend on the processing

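Of the 85 ribosomal protein genes tested, 26 were called (4 higher, 22 lower), and the median change was -0.15 on the log2 scale. A filter of 10 counts in every sample gave 16 calls, 13 lower, and a median of -0.11. The length curve gave 58 calls, 2 higher and 56 lower, and a median of -0.28, but annotated lengths are too long for several members. Library size only gave 8 calls, 4 lower, and a median of -0.0073. Requiring a 1.5-fold change left 1 call, 1 higher (Rpl3l, which passed the filter through the GapmeR samples alone) and 0 lower, and 20 of 90 calls in the other lists, and leaving out copies left 2 higher. The cause of these moves was not tested, except that the fold requirement and the removal of copies drop genes by construction.

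A replicate block, which compared only samples whose number occurs in both groups, left 11 genes called, 8 of them lower. With the block and the length curve 49 were called, 2 higher and 47 lower, with a median of -0.26. The block fits thus compared fewer GapmeR samples as well, and the part of each in the number of calls was not tested. Deviations of samples with the same number correlated at -0.0866 and 0.152 in the 2 pairs. With only 2 controls these values cannot decide whether samples of the same number were paired, and the labels give no pairing beyond the number. Rpl22l1 reversed to 0.21 under the block with the GC curve (edgeR adjusted p = 0.0426, with 0.974 without block or curve and 0.0426 to 0.999 over the alternatives).

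Leaving out 1 sample at a time gave 8 to 39 calls, 1 to 4 higher and 5 to 36 lower, medians of -0.16 to -0.11, and 49 to 125 calls in the other lists. Total and lower calls were 8 and 5 without Negative Control 1, 9 and 8 without Negative Control 2, 39 and 36 without GapmeR 2, 17 and 13 without GapmeR 3, and 16 and 13 without GapmeR 4. The other lists had 52 calls without Negative Control 1 and 49 without Negative Control 2. With 2 controls, each decides many calls. The Results give shares over all genes tested for library size only, the length curve and the replicate block. They also give them for the fits without GapmeR 2 or either control. The other alternative fits have no such share here, so their counts of members are not set against a background.

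Over single genes, 1191 values kept direction and call, 164 lost the call, 44 gained it and 1 reversed.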
